A study of Mus musculus with 10 samples.

Results

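The 9 genes described here are 8 transcription factor genes of the NR4A, EGR and NFAT families (Nr4a1, Nr4a2, Nr4a3, Egr1, Egr2, Egr3, Nfatc1 and Nfatc2) and Cd69, an early activation marker, out of 23992 gene symbols measured. A gene was taken where its symbol equalled one of these names, and the transcript row with the highest mean reads stood for it. Egr2 and Egr3 were low in lung regulatory T cells and high in stimulated spleen regulatory T cells, Nr4a1 and Cd69 showed the opposite order, and Egr1, Egr2 and Egr3 rose when TSLP was added to stimulated spleen cells. None of the 9 genes passed the test between Crlf2-deleted and control lung cells when all libraries were used.

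RNA of Tregs (regulatory T cells, the Foxp3-expressing CD4 cells that restrain immune responses) from C57BL/6J mice was sequenced in 10 libraries. Crlf2-deleted lung Tregs (3 libraries) came from mice with the genotype Crlf2fl/fl Foxp3YFP-Cre, immunized with ovalbumin (OVA). In these mice a YFP-Cre fusion expressed from Foxp3 removes floxed Crlf2, which encodes the ligand-binding chain of the receptor for TSLP (thymic stromal lymphopoietin, an epithelial cytokine), in Foxp3-expressing cells. Control lung Tregs (3 libraries) came from OVA-immunized Foxp3YFP-Cre mice, which carry the Cre allele without the floxed gene and are labelled wild-type. The TCR + TSLP group (2 libraries) held natural Tregs from the spleen of wild-type mice, stimulated through the T cell receptor (TCR) by anti-CD3 and anti-CD28 in culture for 24 h, with TSLP added. The TCR group (2 libraries) was stimulated in the same way without TSLP. Whether the libraries of a group came from separate animals or cultures is not stated, and a p-value here measures the spread of these libraries alone, which may be technical.

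Signals from the T cell receptor raise calcium, and calcium activates the phosphatase calcineurin, which moves NFAT proteins into the nucleus. NFAT and the ERK pathway induce the EGR zinc finger factors within minutes to hours, and the NR4A orphan nuclear receptors rise with them, so that Nr4a1 (Nur77) is widely used as a readout of antigen receptor signalling. In Tregs, NR4A receptors are needed to keep Foxp3 expression, and EGR2 and EGR3 restrain T cell activation. CD69 pairs with the sphingosine 1-phosphate receptor S1PR1 at the cell surface and holds cells in tissue.

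Promoter sequence was at hand for 5 of the 9 genes in the RefSeq table of build GRCm38.p6, as windows from 250 bases before to 50 after a transcription start site. Those of Egr2 and Nr4a1 are shown because these genes differed in opposite directions between lung and spleen, and that of Nr4a3 as a second NR4A gene. Capitals mark TGACG on either strand (its reverse is CGTCA), the half-site of the cyclic AMP response element bound by CREB, and in Egr2 also a CArG box, the element bound by serum response factor. The windows lie on the plus strand, that of Egr2 at chr10:67537619-67537918, that of Nr4a1 at chr15:101266596-101266895 and that of Nr4a3 at chr4:48045055-48045354.
Egr2: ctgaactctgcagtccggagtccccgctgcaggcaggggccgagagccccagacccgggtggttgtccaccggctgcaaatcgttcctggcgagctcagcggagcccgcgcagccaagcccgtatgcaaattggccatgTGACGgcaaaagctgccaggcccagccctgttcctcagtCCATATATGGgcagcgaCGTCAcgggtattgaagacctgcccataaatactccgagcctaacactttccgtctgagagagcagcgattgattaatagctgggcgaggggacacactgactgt
Nr4a1: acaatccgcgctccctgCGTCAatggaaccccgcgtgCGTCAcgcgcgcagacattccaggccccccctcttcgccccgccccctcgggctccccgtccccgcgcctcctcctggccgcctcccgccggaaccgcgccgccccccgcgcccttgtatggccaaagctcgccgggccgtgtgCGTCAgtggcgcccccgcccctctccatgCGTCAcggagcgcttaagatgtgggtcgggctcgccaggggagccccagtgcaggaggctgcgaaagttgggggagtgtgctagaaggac
Nr4a3: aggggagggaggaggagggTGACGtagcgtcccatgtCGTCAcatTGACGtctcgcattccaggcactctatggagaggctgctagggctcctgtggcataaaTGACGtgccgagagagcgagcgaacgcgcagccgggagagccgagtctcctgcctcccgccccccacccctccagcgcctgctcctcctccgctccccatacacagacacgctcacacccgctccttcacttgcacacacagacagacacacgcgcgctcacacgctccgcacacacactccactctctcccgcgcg
The Egr2 and Nr4a1 windows start from the transcripts that were counted, and the Nr4a3 window from another start site of the gene. TGACG was found 2 times in the Egr2 window and 4 times in each of the Nr4a1 and Nr4a3 windows, and 20.8% of the 32851 windows in the table held it at least 1 time. The Nr4a2 window also held 4 matches, and both Nfatc2 windows held 0. A CArG box was found in the Egr2 window, and 1.63% of all windows held one. The letters GGAAA, the core bound by NFAT, were found 1 time in the Egr2 window and 0 times in those of Nr4a1 and Nr4a3, against 61.3% of all windows with at least 1 match. The NR4A element AAAGGTCA, the EGR site GCGTGGGCG, the full element TGACGTCA and the AP-1 site TGAGTCA had 0 matches in all 3 windows, searched on both strands. These are matches of letters, and the data do not measure binding.

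Reads assigned to genes, with 1 transcript row per gene, numbered 9647686 to 18349039 in the Crlf2-deleted lung libraries, 1439675 to 12179230 in the control lung libraries, 34852308 and 51671901 in the TCR + TSLP libraries and 27866031 and 27237313 in the TCR libraries. Levels of a gene are given as normalised CPM (CPM after scaling for composition over all 10 libraries). Crlf2, the deleted gene, had 8.49, 6.32 and 3.35 normalised CPM in Crlf2-deleted lung libraries and 86.5, 135 and 97.5 in control lung libraries, so that the labels and the gene go together (log2 fold change -4.16, SE 0.36, adjusted p = 0.00465, edgeR quasi-likelihood test). Treg identity was checked with Foxp3, whose median was 402 normalised CPM in Crlf2-deleted lung, 404 in control lung (lowest library 186), 158 with TSLP and 183 without it. Control lung library 3 stood apart. Its summed T cell markers (2830 normalised CPM) and Treg markers (1100) were the lowest of the lung libraries, with all 8 and 5 genes lowest there. Macrophage markers (7 of 7 genes), B cell markers (5 of 5), neutrophil markers (5 of 5), NK cell markers (4 of 4) and red cell markers (4 of 4) were all highest there. The macrophage sum was 3960 in this library, against 871 to 907 in Crlf2-deleted lung and 242 and 338 in the other control libraries, and the red cell sum was 85700, against 984 to 1410 in Crlf2-deleted lung and 949 and 3470 in the other controls. Hba-a1 and Hba-a2 of the red cell list had nearly equal values (28000 and 27800 at the highest), and whether the same reads count in both is not stated. The calls of the 9 genes and the list counts in lung are therefore also given without control library 3.

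**Figure D1:**
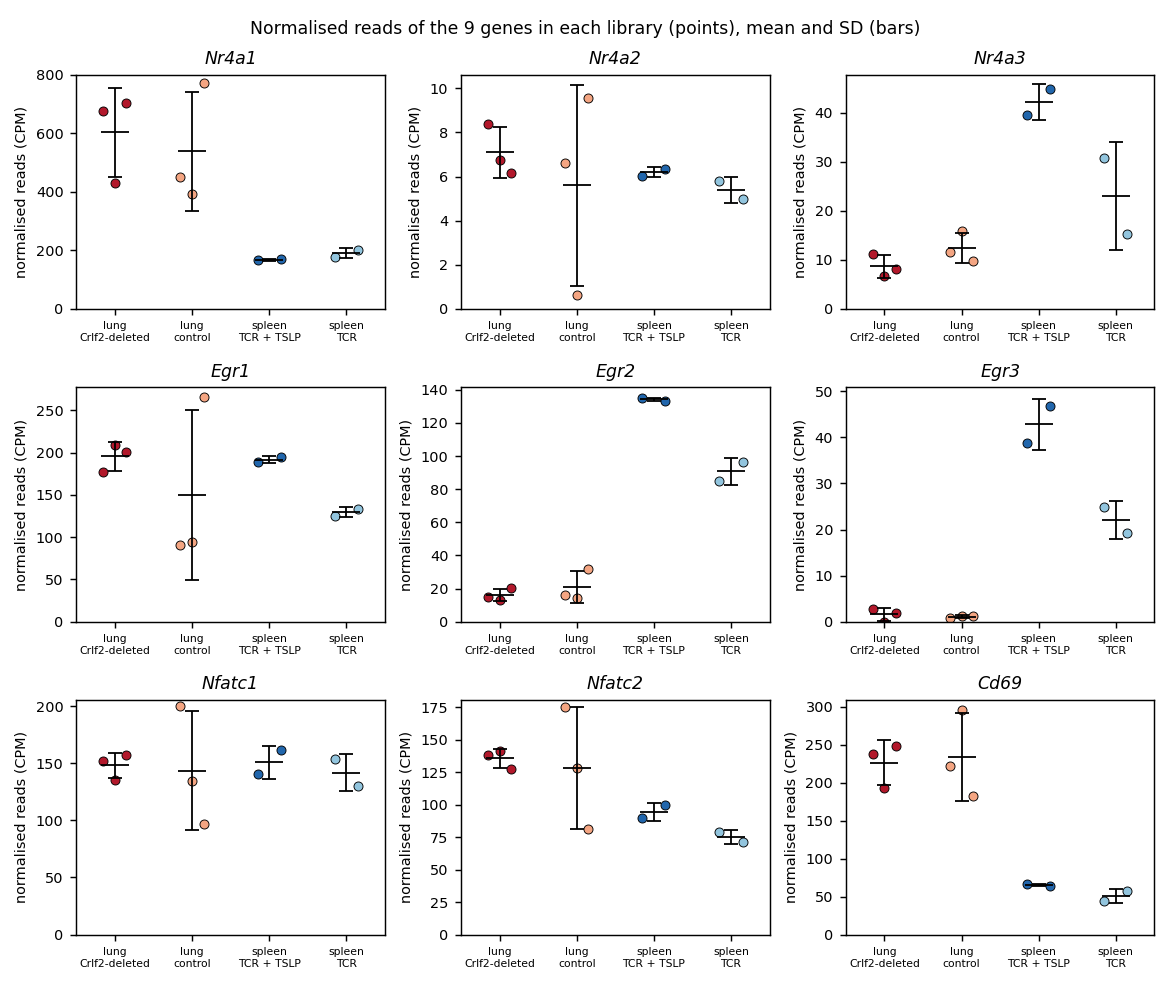
Normalised reads (CPM, linear axes from 0) of the 9 genes, with 1 point per library, the group mean as a bar and the SD as whiskers. Crlf2-deleted and control lung are on the left and TCR + TSLP and TCR spleen cultures on the right. Egr2 and Egr3 lie higher in the spleen cultures, Nr4a1 and Cd69 lie higher in lung, and control lung is the most spread group for Egr1.

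The effect of adding TSLP to TCR stimulation was compared first, in spleen Tregs. The EGR genes rose together, Nfatc2 rose by less, and the other 5 genes did not pass the test. In all, 4 of the 9 genes were called, all higher with TSLP, while 45.8% of the 13214 genes tested were called in either direction and 22.7% were called higher. For 8 of the 9 genes the libraries of the groups did not overlap, and the same held for 75.4% of all genes. The share of the 9 genes called is thus that of genes at large, and what follows describes each gene and not the group. Markers of other cells also differed between these cultures. The 5 tested B cell markers summed to 77.7 and 77.9 normalised CPM with TSLP, against 120 and 113 without, and 4 of them fell (Cd79b by a log2 of 1.11). Of 3 tested CD8 T cell markers 2 fell, and their list summed to 26.9 and 28.7 with TSLP, against 43.4 and 43.7 without. Of the 8 T cell markers 1 rose and 3 fell (sums of 3160 and 3120 with TSLP, against 3770 and 3880 without), and of 5 Treg markers 1 rose and 1 fell (2630 and 2740, against 2050 and 2140). Their part in the changes below was not tested. Of all genes tested, 2999 were higher and 3051 (23.1%) lower, and with library totals as the only scaling 5059 were higher and 2000 lower, which moved the median of all genes to a log2 fold change of 0.24.

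Egr1 (chromosome 18, 34861207 to 34864956, plus strand, mm10), the classic growth factor and ERK-induced member, had 189 and 194.8 normalised CPM with TSLP, against 125 and 134 without. The cultures with TSLP were both above those without, and the fold change was 1.44 (95% interval 1.25 to 1.65, log2 0.52, SE 0.085, adjusted p = 0.00212). Egr2 (chromosome 10, 67534469 to 67542188, plus strand), which together with Egr3 controls T cell tolerance, had 135 and 134 normalised CPM with TSLP and 85.1 and 96.4 without. Its fold change of 1.43 (1.23 to 1.67, log2 0.52, SE 0.094, adjusted p = 0.00330) was close to that of Egr1. Egr3 (chromosome 14, 70077317 to 70082613, plus strand) had 38.9 and 46.8 normalised CPM with TSLP and 24.9 and 19.2 without. Its fold change was the largest of the 3, at 1.88 (1.48 to 2.39, log2 0.91, SE 0.15, adjusted p = 0.00211), and its log2 fold change stood at the 96th percentile of all genes tested. The rows counted for Egr3 (1416 bases) and Nr4a3 (1884 bases) are shorter than the GENCODE transcripts of these genes (3940 and 5720 bases), so reads in the rest of the transcripts are not counted. The calls of all 3 EGR genes were lost where lung and spleen libraries shared 1 fit (adjusted p = 0.510, 0.313 and 0.545 for Egr1, Egr2 and Egr3), which was the only setting run that ended them.

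None of the 3 NR4A genes passed the test, and no difference between the families was tested. Nr4a1 (chromosome 15, 101253902 to 101274795, plus strand) had 165 and 168 normalised CPM with TSLP and 178 and 202 without, and its log2 fold change was -0.23 (SE 0.092, adjusted p = 0.0684). It was 0.13 on the deposited RPKM, a scale on which the median of all genes was 0.20 (log2(RPKM + 1)), and it was called lower with a trend on transcript length removed (-0.30, adjusted p = 0.0356). Nr4a2 (Nurr1, chromosome 2, 57106830 to 57124003, minus strand), the scarcest of the 9 genes in spleen, had 6.04 and 6.35 normalised CPM with TSLP and 5.80 and 4.97 without (adjusted p = 0.487). Nr4a3 (Nor1, chromosome 4, 48045078 to 48086447, plus strand) had 39.6 and 44.7 normalised CPM with TSLP and 30.8 and 15.2 without. Its log2 fold change of 0.83 (SE 0.31) was near that of Egr3, but the TCR libraries differed by more than the TSLP libraries and the adjusted p was 0.0740. It was called higher in 6 of 14 other settings, among them library totals (adjusted p = 0.0344), moderation that was not robust (adjusted p = 0.0346, edgeR) and the deposited RPKM (adjusted p = 0.00697 and 0.00490, limma). It was also called in all 4 fits that left out a library (adjusted p up to 0.00187), where a lone library takes its spread from the other group. The value without TCR library 1 was 1.44 and without TCR library 2 it was 0.43, so 1 library decides its size.

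Nfatc2 (NFATc2, or NFAT1, chromosome 2, 168476410 to 168601657, minus strand), the NFAT member present in resting T cells, had 89.5 and 99.4 normalised CPM with TSLP and 79.0 and 71.2 without. Its log2 fold change was 0.29 (SE 0.10, adjusted p = 0.0484), close to the threshold of 0.05, and the call was kept in 5 of 14 other settings and in 2 of 4 fits that left out a library. It was lost, for example, with DESeq2 (adjusted p = 0.0599) and with a length trend removed (0.10, adjusted p = 0.479). Nfatc1 (chromosome 18, 80606205 to 80713071, minus strand), which TCR signals induce through its own promoter, had 141 and 161 normalised CPM with TSLP and 153 and 130 without. These libraries overlapped, and the fold change of 1.03 had a 95% interval from 0.862 to 1.24. Cd69 (chromosome 6, 129267324 to 129275375, minus strand) had 66.4 and 63.9 normalised CPM with TSLP and 44.7 and 57.0 without, which is 0.31 on the log2 scale (SE 0.12, adjusted p = 0.0704). It passed with no filter on low counts (adjusted p = 0.0257) and on the deposited RPKM (adjusted p = 0.0105, limma).

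**Figure D2:**
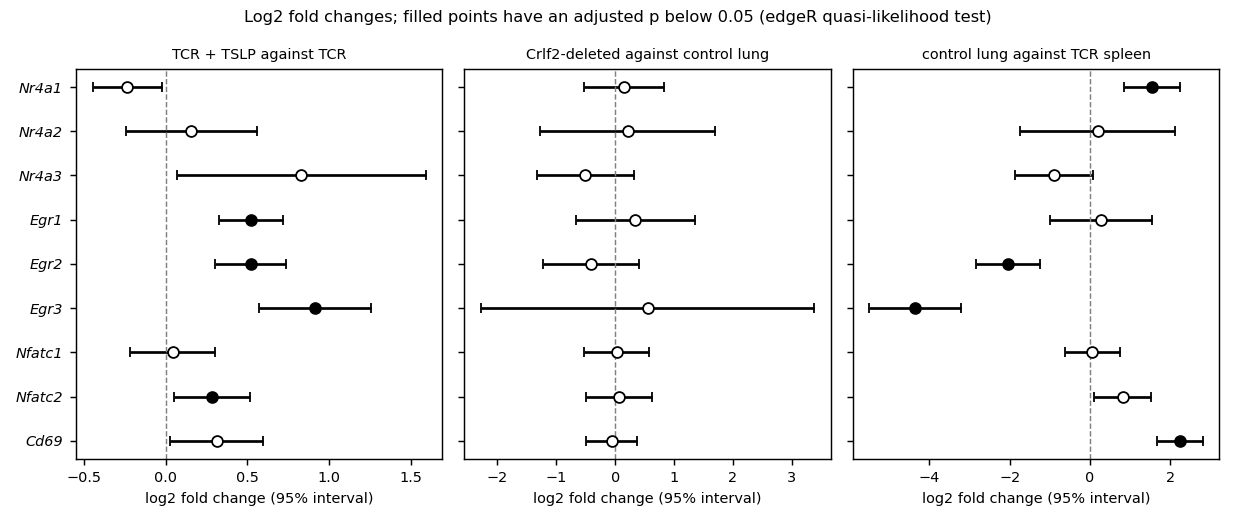
Log2 fold change of each gene with its 95% interval in 3 comparisons, from edgeR. Points are filled where the adjusted p was below 0.05. With TSLP the EGR genes are to the right of 0 (0.52, 0.52 and 0.91), in Crlf2-deleted against control lung every interval crosses 0, and in control lung against TCR spleen Egr2 (-2.04) and Egr3 (-4.35) are to the left while Nr4a1 (1.54) and Cd69 (2.23) are to the right.

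Ratios of genes within a library do not depend on how libraries are scaled. Per length (RPKM), Egr1 over Nr4a1 was 0.922 and 0.932 with TSLP and 0.566 and 0.533 without. Egr2 over Egr1 was 0.710 to 0.741 with TSLP and 0.704 to 0.746 without, so that the groups overlapped in this ratio. Nr4a1 made up 72.6 to 74.4% of the summed RPKM of the 3 NR4A genes with TSLP and 79.9 to 89.5% without. With 2 libraries a group, no exact permutation test of a ratio could reach 0.05 (the smallest two-sided p is 0.333), and these values are given as a description.

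**Figure D3:**
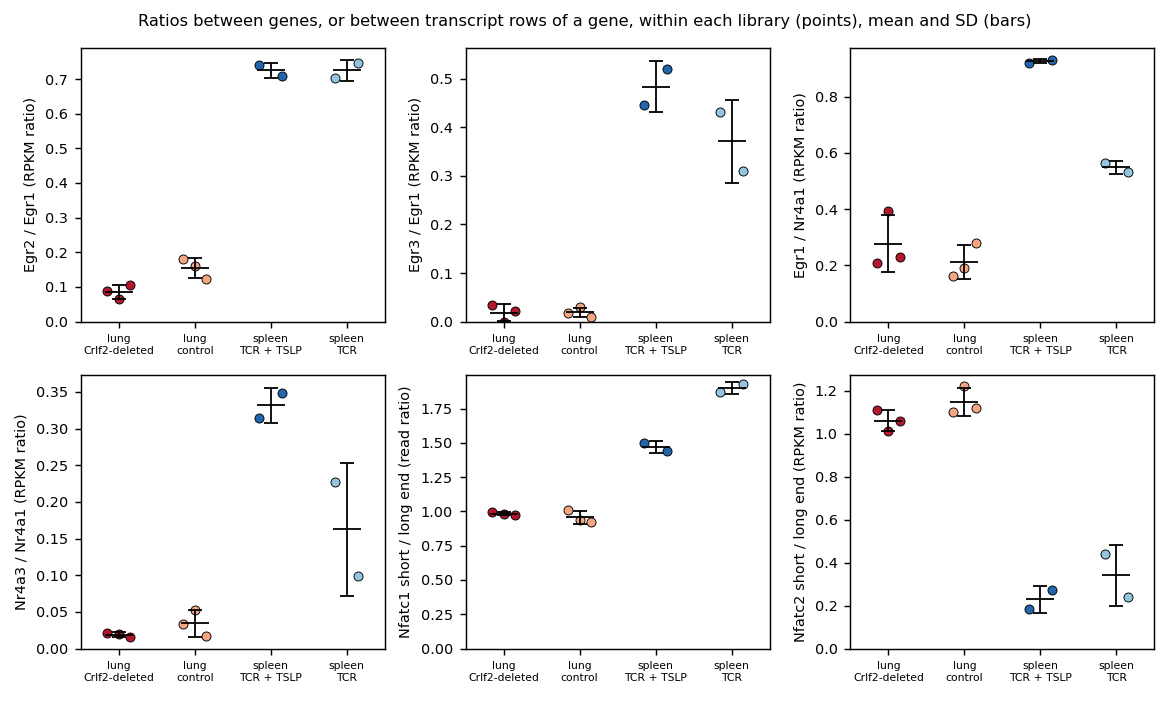
Ratios between genes (RPKM) or between transcript rows of 1 gene (reads for Nfatc1, RPKM for Nfatc2) in each library, with 1 point per library, means as bars and SD as whiskers on linear axes from 0. Egr1 over Nr4a1 separates TCR + TSLP (0.922 to 0.932) from TCR (0.533 to 0.566), and Nfatc1 short-ended over long-ended rows with the downstream first exon separates both from lung (0.921 to 1.01 in control lung).

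Nfatc1 has 6 transcript rows and Nfatc2 has 4, and the rows of a gene overlap, so that reads in shared exons count in each. Of the Nfatc1 rows, 2 end in a last exon of 2530 bases at 80647435 to 80649964, and the others end in an exon of 1821 bases at 80606205 to 80608025. The first exon also differs, and 3 rows start at the upstream and 3 at the downstream one. In T cells the form with the upstream first exon and the short end is known as NFATc1/alphaA and is induced by TCR signals, and its row is the one counted for the gene above. The reads of this row over those of a long-ended row with the same first exon were 1.48 and 1.42 with TSLP and 1.77 and 1.88 without. For the rows with the downstream first exon the ratio was 1.5 and 1.44 with TSLP and 1.87 and 1.93 without. Tested row by row, which was chosen after the data were seen, neither short-ended row passed (log2 0.02, adjusted p = 0.877 for the upstream and 0.05, adjusted p = 0.741 for the downstream first exon, edgeR). The 2 long-ended rows with the downstream first exon rose with TSLP (0.41 and 0.42, adjusted p = 0.0230 and 0.0212), and those with the upstream first exon did not pass (0.35 and 0.36, adjusted p = 0.0609 and 0.0563). The long-ended rows share their last exon, so they are not separate measurements. The share called of all 18866 rows tested was not counted. In lung the ratio of the upstream rows was 0.973 to 0.995 in Crlf2-deleted libraries and 0.917 to 1.01 in control libraries. For Nfatc2 the RPKM of the short-ended over the long-ended row was 1.01 to 1.11 in Crlf2-deleted lung, 1.10 to 1.22 in control lung, 0.185 to 0.273 with TSLP and 0.241 to 0.442 without. How the library kit or coverage along the transcripts bears on these ratios was not tested.

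The second comparison asked whether the genes differ in lung Tregs whose Crlf2 is deleted. In the 3 against 3 libraries, 0 of the 9 genes were called by edgeR (0 at an unadjusted p under 0.05, and 0 by DESeq2 and by limma on log2 RPKM), where 1.79% of 12717 genes were called. The libraries of the groups overlapped for every one of the 9, where 22.0% of all genes had groups that did not overlap. Of all genes called, 98 were higher and 129 lower, and with library totals alone 137 were higher and 57 lower.

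Egr1 was the gene that gained a call when 1 library was left out. It had 177, 209 and 201 normalised CPM in Crlf2-deleted lung and 90.9, 93.8 and 266 in control lung. The Crlf2-deleted libraries lay close together, and control libraries 1 and 2 lay below them while control 3 lay above. With all libraries the fold change was 1.27 (95% interval 0.632 to 2.55, adjusted p = 0.751), and without control 3 the log2 fold change was 1.07 (adjusted p = 0.00601), where 4.11% of 12931 genes were called and 1.95% were called higher. Control 3 was also highest among the controls for 18 of 28 immediate early and dissociation genes (64.3%, against 35.3% of 14445 genes), such as Fos (1230 normalised CPM, against 427 and 497) and Ier3 (121, against 8.85 and 8.24). Whether its markers of macrophages and other cells, given above, account for its Egr1 level was not tested. The fit without control 3 also sets unlike libraries side by side. Summed macrophage markers were 871 to 907 normalised CPM in Crlf2-deleted lung, against 242 and 338 in controls 1 and 2. Of the 28 immediate early and dissociation genes, 5 rose and 1 fell in that fit (21.4% called). The part of either in the Egr1 call was not tested. In bulk RNA, fewer cells of a type and less RNA per cell cannot be told apart.

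Nr4a1 was abundant and variable in lung, with 676, 428 and 704 normalised CPM in Crlf2-deleted and 451, 393 and 770 in control libraries (fold change 1.10, 0.690 to 1.77). Egr2 had 15, 12.9 and 20.3 normalised CPM in Crlf2-deleted lung and 15.8, 14.6 and 32.0 in control lung, and control 3 was again highest. Within libraries, Egr2 over Egr1 was 0.0642 to 0.105 in Crlf2-deleted lung and 0.124 to 0.180 in control lung, and control 3 gave the lowest of the control ratios. Egr3 was near the limit of detection, with 30, 0 and 40 reads in Crlf2-deleted and 6, 2 and 14 reads in control libraries. A count of 0 in Crlf2-deleted library 2 allows up to 0.226 normalised CPM, counting error only. Nr4a3 had 11.2, 6.70 and 8.08 normalised CPM in Crlf2-deleted lung and 11.6, 15.8 and 9.74 in control lung (log2 fold change -0.51, SE 0.36, adjusted p = 0.548). Nr4a2 had 8.39, 6.77 and 6.16 in Crlf2-deleted lung and 6.61, 0.633 and 9.57 in control lung, where the middle value is 1 read of the shallowest library.

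The NFAT genes had close means in the 2 lung groups and a wide range in control lung. Nfatc1 had 152, 135 and 157 normalised CPM in Crlf2-deleted and 200, 134 and 96.5 in control lung (fold change 1.02, 0.695 to 1.49). Nfatc2 had 138, 142 and 127 in Crlf2-deleted and 175, 128 and 81.6 in control lung (1.05, 0.707 to 1.55). Both NFAT genes were lowest in control 3, as the T cell markers were. Cd69 had 237, 193 and 248 normalised CPM in Crlf2-deleted and 222, 296 and 182 in control lung (0.961, 0.711 to 1.30). The interval of Cd69 was the narrowest of the 9. Changes within its bounds remain possible at this spread, and the bounds are not a limit of detection. A p that misses the threshold does not show that the levels were equal. Summed lung epithelium markers, which differ between libraries of both groups, were 2160 to 17000 normalised CPM in Crlf2-deleted lung and 15300 to 73900 in control lung. Most of this sum was 1 secretory gene, Scgb1a1 (2050 to 16400 in Crlf2-deleted and 14800 to 71500 in control lung). The part of these markers was not tested.

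**Figure D4:**
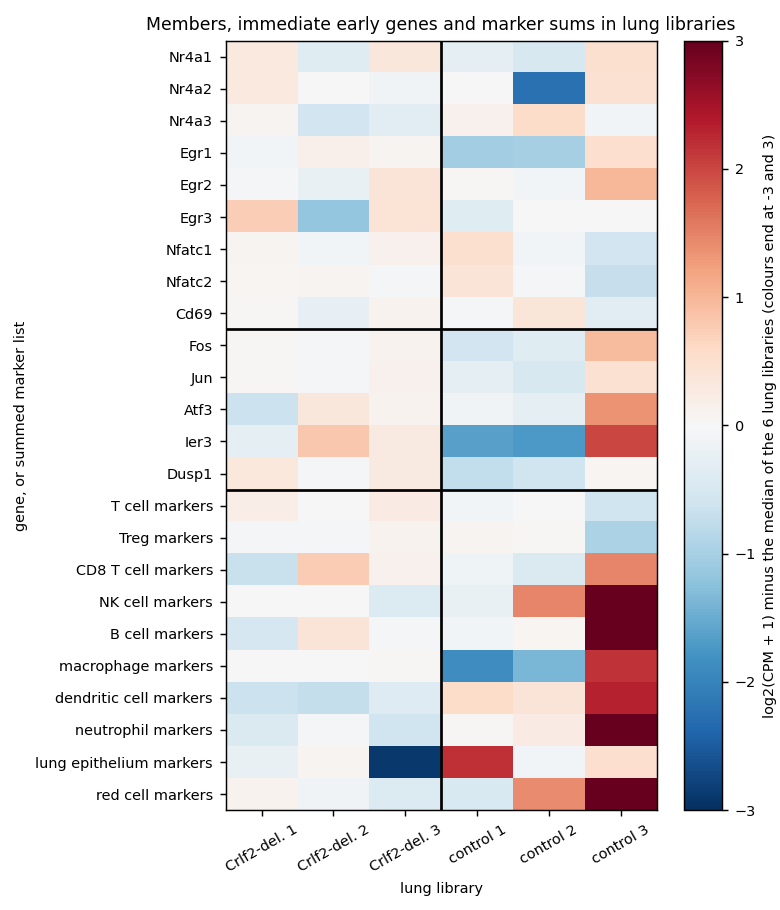
The 6 lung libraries, with Crlf2-deleted libraries on the left and controls on the right. Colours give log2(CPM + 1) minus the median of the 6 for the 9 genes (top), 5 immediate early genes (middle) and summed marker lists (bottom). Control 3 is red for Egr1, Fos, Ier3 and markers of B cells, macrophages, neutrophils and red cells and blue for T cell and Treg markers, and controls 1 and 2 are blue for Egr1.

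The third comparison set control lung Tregs beside TCR-stimulated spleen Tregs. Tissue, culture, stimulation, genotype and possibly the library kit differ together here and cannot be told apart. Of the 9 genes, 4 were called, 2 higher and 2 lower in lung, where 51.8% of 13325 genes were called (25.5% higher, 26.3% lower), so the number called is again that of genes at large. Without control 3, 5 of the 9 were called, where 56.7% of 13290 genes were called (27.7% higher, 29.1% lower). The sizes were large for Egr3, whose log2 fold change stood at the 1.43 percentile of all genes tested. With library totals alone 3919 genes were higher and 2887 lower, against 3401 and 3506 with composition scaling. On log2(RPKM + 1) the split was 1179 and 6628 with a median of -0.45. Listed reads were 21.2 to 30.1% of the total that scales RPKM in control lung, against 52.9 and 59.7% in TCR spleen. Deposited RPKM therefore differs in scale between lung and spleen.

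Egr3 had 0.748, 1.27 and 1.23 normalised CPM in control lung and 24.9 and 19.2 in TCR spleen (log2 fold change -4.35, SE 0.49, adjusted p = 0.000342). Egr2 was lower in lung too, at the 15.8, 14.6 and 32.0 normalised CPM above, against 85.1 and 96.4 in TCR spleen (-2.04, SE 0.34, adjusted p = 0.00220). Egr1 did not pass (0.27, SE 0.51, adjusted p = 0.688), and its sign was not stable. Without control 3 its value was -0.41 (adjusted p = 0.0652). Among the 3 EGR genes, Egr1 made up 88.8 to 94.0% of the summed RPKM in Crlf2-deleted lung, 83.4 to 88.2% in control lung, 44.8 to 45.7% with TSLP and 46.8 to 48.6% with TCR alone. On the rows counted, the EGR mixture was therefore mostly Egr1 in lung and shared among all 3 genes in culture. The Egr3 row (1416 bases) covers only part of its GENCODE transcript (3940 bases). How coverage along that transcript bears on the Egr3 share or fold change was not tested.

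Nr4a1 was higher in control lung, at the 451, 393 and 770 normalised CPM above, against 178 and 202 in TCR spleen (2.91-fold, 95% interval 1.81 to 4.70, log2 1.54, SE 0.30, adjusted p = 0.00404). The call was lost on the deposited RPKM (log2 0.53, adjusted p = 0.278, limma) and without TCR library 1 (1.45, adjusted p = 0.0609), while without control 3 it remained (1.23, adjusted p = 0.000293). Nr4a3 had a log2 fold change of -0.89 (adjusted p = 0.109) and was called lower in 3 of 14 other settings, on both RPKM scales (adjusted p = 0.00414 and 0.00410, limma) and with all 4 groups in 1 fit (adjusted p = 0.0340). The Nr4a1 share of NR4A RPKM was 94.9 to 97.4% in control lung. Cd69 had 222, 296 and 182 normalised CPM in control lung and 44.7 and 57.0 in TCR spleen (4.69-fold, 3.15 to 6.98, log2 2.23, SE 0.25, adjusted p = 0.000313). Nfatc1 was at a log2 of 0.05 (95% interval of the fold change 0.647 to 1.67, adjusted p = 0.889) but was called lower on the deposited RPKM (-0.82, adjusted p = 0.0269, limma). Nfatc2 was at 0.81 (adjusted p = 0.0596), was called higher in 8 of 14 other settings, and passed without control 3 (1.11, adjusted p = 0.00199). Tested row by row, a choice made after the data were seen, the long-ended Nfatc1 rows were all higher in lung (log2 0.92 to 1.13, adjusted p = 0.0101 to 0.0267, edgeR). Neither short-ended Nfatc1 row passed (0.02 and 0.15, adjusted p = 0.963 and 0.677). The short-ended Nfatc2 rows were higher by 2.49 and 2.51 (adjusted p = 0.00245 and 0.00279), and the long-ended ones did not pass (0.77 and 0.72). Rows of a gene with the same end share reads, so their calls are not separate measurements. The share called of all 19001 rows tested was not counted. Macrophage markers summed to 242 to 3960 normalised CPM in control lung and 4.40 to 5.21 in TCR spleen, and lung epithelium markers to 15300 to 73900 in control lung and 15.3 to 16.1 in TCR spleen. Most of the epithelial sum in lung was Scgb1a1, while Epcam of that list had 23.2 to 58.3 in control lung and 12.1 to 14.2 in TCR spleen. Of the macrophage list Mrc1 and Marco had 0 reads in TCR spleen, and of the epithelial list Sftpc, Sftpa1 and Scgb1a1 had 0. Their part in these differences was not tested.

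In order of level per length, Nr4a1 led in every group, with a mean deposited RPKM of 59.8 in Crlf2-deleted lung, 41.1 in control lung, 28.8 with TSLP and 26.3 with TCR alone. Cd69 followed in lung (34.1 in Crlf2-deleted and 26.0 in control libraries), where its range overlapped that of Nr4a1. Egr1 followed in spleen (26.7 with TSLP and 14.4 without). Egr3 was the lowest of the 9 in lung and Nr4a2 the lowest in spleen. Because the RPKM scale differs between lung and spleen, these means rank genes within a group and do not compare groups.

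Lists of related genes give the surroundings of these factors, counted without a test of the list. Their counts stand beside the shares of all genes tested, which were 45.8% with TSLP, 1.79% in Crlf2-deleted against control lung (4.11% without control 3) and 51.8% in control lung against TCR spleen (56.7% without control 3). Among 28 tested genes of the calcineurin and NFAT pathway, 10 rose and 5 fell with TSLP (53.6% called), with a median log2 fold change of 0.26 against 0.01 over all genes. Stim1, the calcium sensor of the endoplasmic reticulum, rose by a log2 of 0.71 (SE 0.10). Homer3, which competes with calcineurin for NFAT, fell by 1.23 (SE 0.14). In Crlf2-deleted against control lung, 0 of 28 passed, with or without control 3. Between control lung and TCR spleen 9 were higher and 7 lower (57.1%), with the same counts without control 3.

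Of 23 regulators and partners of EGR and NR4A factors, 7 rose and 2 fell with TSLP (39.1% called). Mef2a and Mef2d, MEF2 factors that bind the Nr4a1 promoter, rose by a log2 of 1.29 (SE 0.21) and 0.62 (SE 0.11), and Nab1, a co-repressor of EGR proteins, by 0.42 (SE 0.093). In lung 0 of 22 passed, with or without control 3. Between control lung and TCR spleen 8 were higher and 7 lower (65.2%), or 9 and 8 without control 3. The co-repressor gene Nab2, itself an EGR target, had a log2 fold change of -2.59 (SE 0.27).

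Of 26 T cell activation genes, 10 rose and 8 fell with TSLP (69.2% called). Irf4, which scales with TCR signal strength, rose by a log2 of 0.82 (SE 0.085), while Nrgn, a calmodulin-binding protein gene, fell by 1.86 (SE 0.11). Between control lung and TCR spleen 5 were higher and 10 lower (57.7%), or 6 and 13 without control 3. In mean CPM scaled within this comparison alone, Irf4 was at 28.0 against 528 and the transferrin receptor gene Tfrc at 13.7 against 541. The NF-kappaB inhibitor gene Tnfaip3 was higher in Crlf2-deleted lung (log2 0.57, SE 0.11, adjusted p = 0.0459), the only one of 23 to pass there with all libraries, and this call held in 1 of 6 fits that left out a library. That fit was the one without control 3 (0.52, adjusted p = 0.0352), in which Tnfrsf9, the gene of the costimulatory receptor 4-1BB, passed in the other direction (-1.35, SE 0.15, adjusted p = 0.00297).

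Of 22 anergy and exhaustion genes known to lie downstream of NFAT, EGR or NR4A factors, 4 rose and 1 fell in Crlf2-deleted lung (22.7% called). Without control 3, 5 rose and 2 fell. None of the 9 genes of this report was called there with all libraries, and RNA levels do not measure the activity of these factors. The inhibitory receptor genes Lag3 (log2 2.08, SE 0.16, adjusted p = 0.00465) and Pdcd1 (1.97, SE 0.32, adjusted p = 0.0354) rose, as did Tox2 (1.61, SE 0.25, adjusted p = 0.0268). Without control 3 these 3 genes also passed, at 2.04 (Lag3), 1.69 (Pdcd1) and 1.37 (Tox2). Over the 6 fits that left out a lung library, Lag3 was called in 6, Tox2 in 2 and Pdcd1 in 1, and the log2 fold changes kept their sign (adjusted p up to 0.0414 for Lag3, 0.184 for Pdcd1 and 0.170 for Tox2). Between control lung and TCR spleen 10 were higher and 5 lower (68.2%), or 12 and 6 without control 3. With TSLP 7 of the list rose and 3 fell (45.5%), with Lag3 lower (-0.98, SE 0.090) and Tigit higher (1.06, SE 0.095).

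Of 12 genes around CD69 and sphingosine 1-phosphate receptors, 7 were higher and 0 lower in control lung than in TCR spleen (58.3%, where 25.5% of all genes were higher and 26.3% lower). Without control 3, 6 of 10 were higher and 1 lower, the chemokine receptor gene Ccr7 (-0.86, SE 0.17, adjusted p = 0.00317). In Crlf2-deleted against control lung 0 of 12 rose and 1 fell, and without control 3 1 rose and 1 fell. Between control lung and TCR spleen, S1pr1 itself, the receptor that CD69 antagonizes, was higher in lung by a log2 of 3.93 (SE 0.23). So was the integrin gene Itgae, which binds epithelial E-cadherin (6.19, SE 0.39). Of 28 immediate early and dissociation genes, 10 rose and 3 fell with TSLP (46.4%), and 15 were higher and 5 lower in control lung than in TCR spleen (71.4%), or 17 and 5 without control 3. Dusp1, a phosphatase that switches off MAP kinases, was higher in lung by a log2 of 7.18 (SE 0.35). In Crlf2-deleted against control lung 0 rose and 1 fell, and without control 3 5 rose and 1 fell.

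Genes whose pattern over the 10 libraries was most like a member were found by Pearson correlation of log2 CPM among 8762 genes. The libraries fall into lung and spleen clusters, and a high r over all of them mainly reflects that split. For that reason r over the 6 lung libraries is given too, although the genes were picked on all 10, these 6 included. Among the lung libraries, control 3 was highest for Nr4a1 and Egr2 and lowest for Nfatc1, Nfatc2 and Cd69, and its part in r was not tested. For Egr2 the closest were Lif, a cytokine gene (0.995, and 0.982 in lung), Pes1 (0.992 and 0.882) and Foxk2 (0.992 and 0.977). For Nr4a1 they were Creg1 (0.992 and 0.947), Tmem179b (0.987 and 0.894) and Pqlc1 (0.987 and 0.909). For Cd69 they were Crmp1 (0.997 and 0.945), Rnf41 (0.991 and 0.803) and Gem (0.990 and 0.786). Nfatc1 had weaker matches in Galnt12 (0.891 and 0.959), Deaf1 (0.869 and 0.967) and Ctdp1 (0.852 and 0.961). Among the members, Nfatc1 and Nfatc2 had an r of 0.933 over the 6 lung libraries.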

How the data were processed

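RNA of 10 libraries was read as 50 bp single ends. Per the labels' protocols, 100 to 500 ng of RNA was used, and TCR-stimulated cells were prepared with a stranded total RNA kit that removes ribosomal RNA. The kit of the lung libraries is not stated separately. Each deposited file lists 31682 RefSeq transcripts with whole-number read counts and RPKM, per the file headers. RPKM was scaled by the authors to a library total above the sum of listed reads. That sum was 21.2 to 33.8% of the total in lung libraries and 52.9 to 63.8% in spleen libraries. Tools named in the submitters' processing notes are edgeR, bedtools 2.25.0, SAMtools 0.1.8, TopHat2 2.2.1 and Bowtie2 2.2.6, with build mm10 (GRCm38). How reads were assigned (tool, strand, multimapping) is not stated for these files, so overlapping and antisense genes cannot be separated.

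The main test was the two-sided robust quasi-likelihood test of edgeR 4.0.16 (R 4.3.3, TMM, filterByExpr minimum count 10) within each comparison, with Benjamini-Hochberg adjustment over all genes tested and a threshold of 0.05, and gives every adjusted p for which the text names no other tool. All 9 genes passed the filter in each comparison. Intervals of fold changes are 95% intervals from the fit. Alternatives were DESeq2 1.42.0, limma 3.58.1 on log2(RPKM + 1) or log2(RPKM + 0.1), other scalings and filters, moderation that was not robust, all groups in 1 fit, summed transcript rows, removal of trends on transcript length and GC content (loess span 0.3), the replicate number as a block, and leaving out each library. Scripts were tested on simulated data. No 2 replicates agreed within sampling noise (chi-square of 6.15 to 177 per degree of freedom). The members and the lists were chosen with earlier results of these data known. Named genes are the 9 members, Crlf2, up to 4 genes with the smallest p of each list in a comparison, and 3 genes most like each of Nr4a1, Egr2, Nfatc1 and Cd69. Some genes that this rule named are not reported here. Markers and the genes shown with control library 3 were named outside this rule, after their values were seen. Exon positions come from GENCODE and gene coordinates from RefSeq, both of build GRCm38. Counting limits cover counting error only.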

Additional observations from a re-analysis of the deposited data

How the results depend on the processing

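Egr2, Egr3 and Cd69 kept their direction and their call between control lung and TCR spleen in all 14 other settings and in all 5 fits that left out a library, and Egr1, Egr2 and Egr3 kept theirs with TSLP in all but the fit of all 4 groups.

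With TSLP, 1356 genes were called with all 4 groups in 1 fit and 3946 with length and GC trends removed, against 6050, and leaving out a library gave 3212 to 8624. Of the 9 members, 8 were called on log2(RPKM + 1) and 8 on log2(RPKM + 0.1), and 0 with all 4 groups in 1 fit, against 4. The share of all genes called on the RPKM scales is not set beside these counts. They describe the settings and are not a result about the members. Leaving out a library leaves a lone sample in a spleen group, which is assumed to vary like the other. In lung, 867 genes were called with DESeq2, 856 and 804 with limma on log2(RPKM + 1) and log2(RPKM + 0.1), 873 with all 4 groups in 1 fit and 134 with summed transcript rows, against 227, and leaving out a library gave 4 to 532, with 0 to 1 members called. Between control lung and TCR spleen leaving out a library gave 3467 to 7541 genes, against 6907. The causes were not tested.

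Whether equal replicate numbers pair the samples is not stated, and the main test used no block. Same-numbered libraries correlated in their deviations by -0.13 in spleen and by 0.08, -0.15 and -0.04 in lung. With 2 libraries a group the spleen deviations mirror each other, so unequal numbers gave 0.13. In lung, unequal numbers gave -0.15 to 0.19. These values cannot decide whether the samples are paired. The replicate block gave 5817 genes and 5 members with TSLP, 121 genes (107 with the length trend also removed) and 0 members in lung, and 7418 genes and 6 members between lung and spleen. A block with crossed numbers in spleen, chosen after the data were seen, gave 7107 genes and 7 members.

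Members not called with all libraries gained calls in some settings. With TSLP, Nr4a3 was called in 6 of 14, Cd69 in 7, and Nr4a1, Nr4a2 and Nfatc1 in 2 each, each in its reported direction. Between lung and spleen, Nfatc2 was called in 8 and Nr4a3 in 3, and in the other direction Egr1 with the block (adjusted p = 0.0362, and 0.0382 with the length trend removed) and Nfatc1 on both RPKM scales (adjusted p = 0.0269 and 0.0288, limma). In Crlf2-deleted lung no member gained a call in the settings with all libraries. All sign changes, these included, follow as log2 fold changes. With TSLP, Nr4a1 was 0.13 and 0.14 on the RPKM scales, Nr4a2 was -0.078 with length and GC trends removed, and Nfatc1 was -0.17 with the length trend removed (-0.17 with the block) and -0.10 with GC also removed. In lung, Cd69 was 0.10 with library totals, 0.37 and 0.38 on RPKM and 0.057 with length and GC trends removed, Egr2 was 0.035 and 0.093 on RPKM, and Nfatc1 was -0.039 with summed rows. Between lung and spleen, Nr4a2 was -0.25 and -0.92 on RPKM, -0.011 with summed rows and -0.67 and -0.66 with the block (without and with the length trend removed). Egr1 was -0.78 and -0.87 on RPKM and -0.45 and -0.45 with the block. Nfatc1 was -0.82 and -0.92 on RPKM, -0.019 with no filter and -0.15 with length and GC trends removed, and Nfatc2 was -0.14 and -0.19 on RPKM.

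Leaving out each library in turn, Nfatc1 with TSLP ranged over -0.053 to 0.18. In lung the ranges were -0.020 to 0.50 for Nr4a1, -0.19 to 0.72 for Nr4a2, -0.61 to 0.062 for Egr2, -0.092 to 1.13 for Egr3, -0.20 to 0.36 for Nfatc1, -0.19 to 0.38 for Nfatc2 and -0.20 to 0.16 for Cd69. Between lung and spleen they were -0.22 to 0.63 for Nr4a2, -0.41 to 0.54 for Egr1 and -0.28 to 0.33 for Nfatc1. The shallowest library, control 2, limits Nr4a2 and Egr3, with 1 and 2 reads.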
